A study of Homo sapiens with 6 samples.

Results

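Interferon-stimulated genes are the genes that cells switch on after interferons bind their receptors, and the 43 described here were taken by symbol from a fixed list, with no measured value in the rule. The list was nonetheless chosen with earlier results of these data known. Of the 43, 41 were measured by 108 probe sets that carry their symbol alone, out of 18132 genes and 49293 probe sets tested. USP18, the protease that removes ISG15 from proteins, had only a probe set that also carries the symbols of other genes, and STAT2 is not analysed here. The arrays were 3 of Huh7 cells labelled as KCa3.1 silenced and 3 of control Huh7 cells, all in logarithmic growth. Huh7 is an established human hepatocellular carcinoma line. KCa3.1, a potassium channel that opens when calcium rises in the cell, is the product of KCNN4, and how it was knocked down is not given in the labels. The comparison asks which transcripts differ between the 2 labels.

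Type I and type III interferons act through receptor-bound JAK kinases and STAT proteins, which join IRF9 and bind a DNA element called the ISRE. Interferon gamma acts through a STAT dimer that binds the GAS element. The products of the induced genes sense viral RNA, degrade or sequester it, modify proteins with ISG15 and present antigen to T cells, and Huh7 cells are widely used to study them because the line supports growth of hepatitis C virus.

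Because interferon acts on its target genes through these elements, the DNA around the start of each member was searched for them. RefSeq promoter windows of build GRCh38.p14, which run from 250 bases before to 50 bases after a gene's start, matched 34 of the 43 members by symbol. The ISRE-type motif, 2 copies of GAAA with any 2 bases between them, on either strand, was present in at least 1 window of 24 of the 34 members, 70.6%, against 4.38% of all 27305 symbols with a window and 3.57% of all 35116 windows. It was present in 5 of the 6 members that were lower in the silenced-labelled arrays, in the 1 member that was higher and in 18 of the 26 matched members that did not pass the test. The GAS-type motif TTCNNNGAA, which reads the same on both strands and can overlap the ISRE-type motif, was present in 9 of the 34 members and in 9.38% of all symbols with a window. A match shows only that these letters are in the window. Other spacings and DNA outside the window were not searched, so 0 matches does not show that a gene lacks an ISRE. The 200 bases before the start are shown for 4 members that were lower, ISG15, ISG20, GBP1 and OAS3, and for MX1, the member that was higher, each read 5′ to 3′ along the gene with the ISRE-type motif in capitals. Only windows with a match inside this stretch were used, here and below, so each sequence had to hold the motif. OAS1 and TRIM21, also lower, are not shown. OAS1 had 0 ISRE-type matches, and those of TRIM21 begin 17 and 23 bases after the start. The MX1 window is 1 of 3 that RefSeq gives for that gene. Of the others, 1 had 0 matches and 1 had a match that begins 11 bases after the start.
ISG15, chr1:1013297-1013496, plus strand: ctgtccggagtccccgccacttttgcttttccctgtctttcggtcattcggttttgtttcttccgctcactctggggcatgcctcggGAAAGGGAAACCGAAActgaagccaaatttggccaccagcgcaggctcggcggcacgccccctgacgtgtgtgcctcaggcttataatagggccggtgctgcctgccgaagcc
ISG20, chr15:88638816-88639015, plus strand: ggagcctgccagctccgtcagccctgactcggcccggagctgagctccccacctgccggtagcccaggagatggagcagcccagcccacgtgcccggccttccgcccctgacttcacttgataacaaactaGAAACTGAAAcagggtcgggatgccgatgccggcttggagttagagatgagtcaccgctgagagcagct
GBP1, chr1:89065209-89065408, minus strand: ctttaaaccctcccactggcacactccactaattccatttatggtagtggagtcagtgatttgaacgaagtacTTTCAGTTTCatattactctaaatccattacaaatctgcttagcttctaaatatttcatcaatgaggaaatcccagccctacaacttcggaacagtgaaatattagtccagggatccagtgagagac
OAS3, chr12:112938274-112938473, plus strand: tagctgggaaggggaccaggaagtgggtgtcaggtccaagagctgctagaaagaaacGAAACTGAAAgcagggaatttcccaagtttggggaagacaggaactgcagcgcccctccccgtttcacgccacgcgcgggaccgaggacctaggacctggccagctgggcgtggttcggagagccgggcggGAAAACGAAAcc
MX1, chr21:41431850-41432049, plus strand: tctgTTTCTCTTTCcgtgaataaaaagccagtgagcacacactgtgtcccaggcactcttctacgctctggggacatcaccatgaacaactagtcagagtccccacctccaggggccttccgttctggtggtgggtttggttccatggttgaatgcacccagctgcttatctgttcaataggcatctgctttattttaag

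The same stretch is shown for IFIT1, RSAD2 and IFI6, which are among the most used reporters of the interferon response and which did not pass the test here. They were picked after their values were seen. RefSeq gives RSAD2 2 windows, of which the other has 0 matches.
IFIT1, chr10:89392423-89392622, plus strand: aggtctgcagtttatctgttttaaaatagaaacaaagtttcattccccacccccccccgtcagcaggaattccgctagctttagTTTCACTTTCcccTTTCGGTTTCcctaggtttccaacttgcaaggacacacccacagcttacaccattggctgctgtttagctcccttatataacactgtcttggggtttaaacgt
RSAD2, chr2:6877577-6877776, plus strand: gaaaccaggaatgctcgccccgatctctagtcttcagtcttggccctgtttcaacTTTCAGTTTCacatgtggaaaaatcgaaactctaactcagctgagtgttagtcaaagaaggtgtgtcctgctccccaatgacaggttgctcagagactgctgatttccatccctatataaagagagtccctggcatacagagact
IFI6, chr1:27672193-27672392, minus strand: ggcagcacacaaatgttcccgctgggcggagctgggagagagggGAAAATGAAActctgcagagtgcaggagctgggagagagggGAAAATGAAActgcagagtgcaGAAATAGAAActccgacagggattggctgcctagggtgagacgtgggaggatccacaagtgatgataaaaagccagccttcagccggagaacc

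The capitals in ISG15 are 2 overlapping matches that begin 113 and 107 bases before the start, and in IFI6 they are 3 separate matches. By the counts over all matched members, the motif was shared by members that differed between the labels and members that did not pass.

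Values are log2 RMA values that had been centred on each probe set, so they show differences between arrays and hold no level of expression. For that reason no statement on how strongly any member was expressed in Huh7 cells can be made, nor can defining liver markers be shown to be present. Across probe sets, which are not independent of each other, Pearson's r ranged from 0.406 to 0.67 for 2 arrays under 1 label and from -0.273 to 0.0676 for a silenced-labelled with a control array. The baseline is inferred to include these same arrays, and such centring itself lowers r between arrays of different labels. The 2 ranges therefore do not measure how large the difference between the labels is. Nothing in the labels says that replicates came from separate cultures, so each p-value reflects only how far these arrays scatter, and that scatter may be technical.

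KCNN4, the gene that was to be silenced, was not lower on the arrays labelled silenced. Its values were -0.055, 0.089 and 0.011 on the silenced-labelled arrays, against -0.0062, 0.13 and -0.073 on the control arrays. The groups overlapped, and the difference was -0.000327 (SE 0.0691, limma adjusted p = 0.999, two-sided exact permutation p = 1, where the smallest possible is 0.1). Its 3 probe sets are all of a kind whose probes can match other genes, so these values may not be of KCNN4 alone. All directions below are therefore between arrays as labelled.

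GBP1, ISG20, ISG15, OAS3, OAS1 and TRIM21 were lower and MX1 was higher in the silenced-labelled arrays. In bulk RNA, fewer cells that express a gene and less RNA per cell cannot be told apart. The other 34 measured members did not pass the test, among them all 4 IFIT and all 3 IFITM genes on the list and the RNA sensors. In all, 7 of 41 members passed at a limma adjusted p under 0.05 over all genes, or 17.1%, where 13.3% of all 18132 genes passed, so that the number of called members was near the background. By direction, 6 of 41 were lower (14.6%) and 1 was higher (2.44%), where 6.19% and 7.14% of all genes were. The median log2 difference of the 41 was -0.0241, against -0.00576 over all genes. Values of the 2 labels did not overlap in 15 members, 12 lower and 3 higher, which is 36.6% beside 29.3% of all genes. Over the 41 members, the mean centred value lay between -0.0391 and 0.00615 on the silenced-labelled arrays and between 0.03 and 0.0713 on the control arrays.

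**Figure D1:**
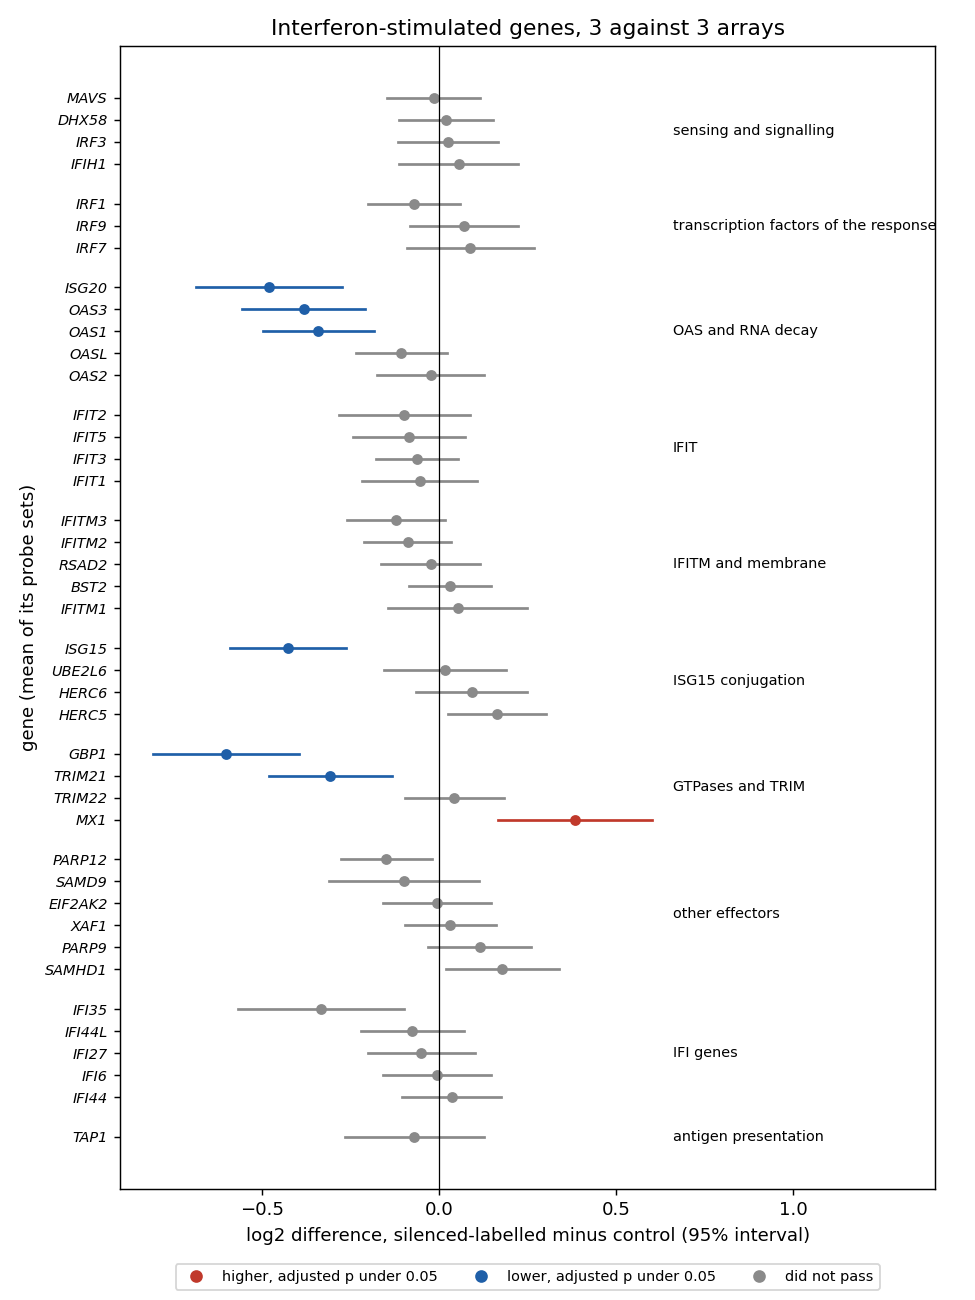
Log2 difference (silenced-labelled minus control arrays, horizontal axis) of each of the 41 measured interferon-stimulated genes, ordered by role, with limma's 95% interval as a line. The 6 lower members are blue and MX1, the 1 higher member, is red, and the intervals of most members that did not pass include 0.

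GBP1, a guanylate-binding GTPase that acts on intracellular pathogens, had the largest difference among the members. Its values were -0.49, -0.50 and -0.34 on the silenced-labelled arrays, against 0.09, 0.029 and 0.35 on the control arrays. All 3 silenced-labelled values lie below all 3 control values. GBP1 was 1.52-fold lower (log2 difference -0.60, SE 0.0907, limma adjusted p = 0.0025). Its 5 probe sets gave differences from -0.67 to -0.41, and 4 of them passed on their own. GBP1 belongs to a family of similar genes, and 4 of the 5 are of kinds whose probes can match other genes, so part of the signal may belong to relatives. The other probe set gave a difference of -0.64.

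MX1, a dynamin-like GTPase that inhibits influenza and other RNA viruses, went the other way. It measured 0.32, 0.11 and 0.46 in the silenced-labelled cells, against -0.22, -0.044 and 0.0059 in control cells. The groups do not overlap, but the silenced-labelled values are widely spread. MX1 was 1.3-fold higher (log2 difference 0.38, SE 0.0958, limma adjusted p = 0.03) on its only probe set. This call was lost without silenced replicate 1 or 3 or control replicate 1 or 2, where the difference lay between 0.30 and 0.40 and the adjusted p between 0.074 and 0.1.

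TRIM21, a ubiquitin ligase that binds antibodies on incoming viruses, was lower. It measured -0.11, -0.16 and -0.071 in the silenced-labelled cells, against 0.095, 0.36 and 0.12 in control cells. Control replicate 2 stands above the other 2 control arrays. The log2 difference was -0.31 (SE 0.0765, limma adjusted p = 0.029), from 1 probe set of a kind that can match other genes. In the test over all probe sets the same probe set did not pass (limma adjusted p = 0.052). The call of the gene was lost in 5 of the 6 fits that left out 1 array, without control replicate 2 or 3 or any silenced replicate, with differences of -0.34 to -0.22 there. The related TRIM22, which restricts several viruses, did not pass, with a difference of 0.043 over 6 probe sets.

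Among the enzymes that make 2-5A, the second messenger that activates the antiviral nuclease RNase L, OAS1 and OAS3 were lower and OAS2 did not pass. OAS1 had gene values of -0.039, -0.18 and -0.056 on the silenced-labelled arrays, against 0.14, 0.29 and 0.32 on the control arrays. The groups do not overlap, and the log2 difference was -0.34 (SE 0.069, limma adjusted p = 0.011). The 4 probe sets of OAS1 differed widely, with differences of -0.80, -0.42, -0.14 and -0.013, and the first of these alone passed when tested over all probe sets (limma adjusted p = 0.0078). That probe set measured -0.25, -0.37 and -0.14 on the silenced-labelled arrays, against 0.20, 0.75 and 0.67 on the control arrays.

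OAS3 measured -0.12, -0.18 and 0 in the silenced-labelled cells, against 0.41, 0.25 and 0.18 in control cells. Its log2 difference was -0.38 (SE 0.0765, limma adjusted p = 0.011), from 1 probe set whose identifier marks it as specific. A further 2 probe sets carry the symbols of OAS2 and OAS3 together and were larger in size than any member's. The first measured -0.50, -0.88 and -0.72 in the silenced-labelled cells, against 0.16, 0.37 and 0.64 in control cells, a difference of -1.09 (SE 0.135, limma adjusted p = 0.0014). The second measured -0.73, -0.68 and -0.53 in the silenced-labelled cells, against 0.35, 0.50 and 0.41 in control cells, a difference of -1.07 (SE 0.0765, limma adjusted p = 9.7e-05). They cannot be assigned to either gene here. The 5 probe sets of OAS2 alone lay between -0.13 and 0.091, and its gene difference was -0.024 with a 95% interval of -0.174 to 0.126. OASL, a relative without this enzyme activity that aids RNA sensing, did not pass either (difference -0.11, limma adjusted p = 0.3), although its groups do not overlap.

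**Figure D2:**
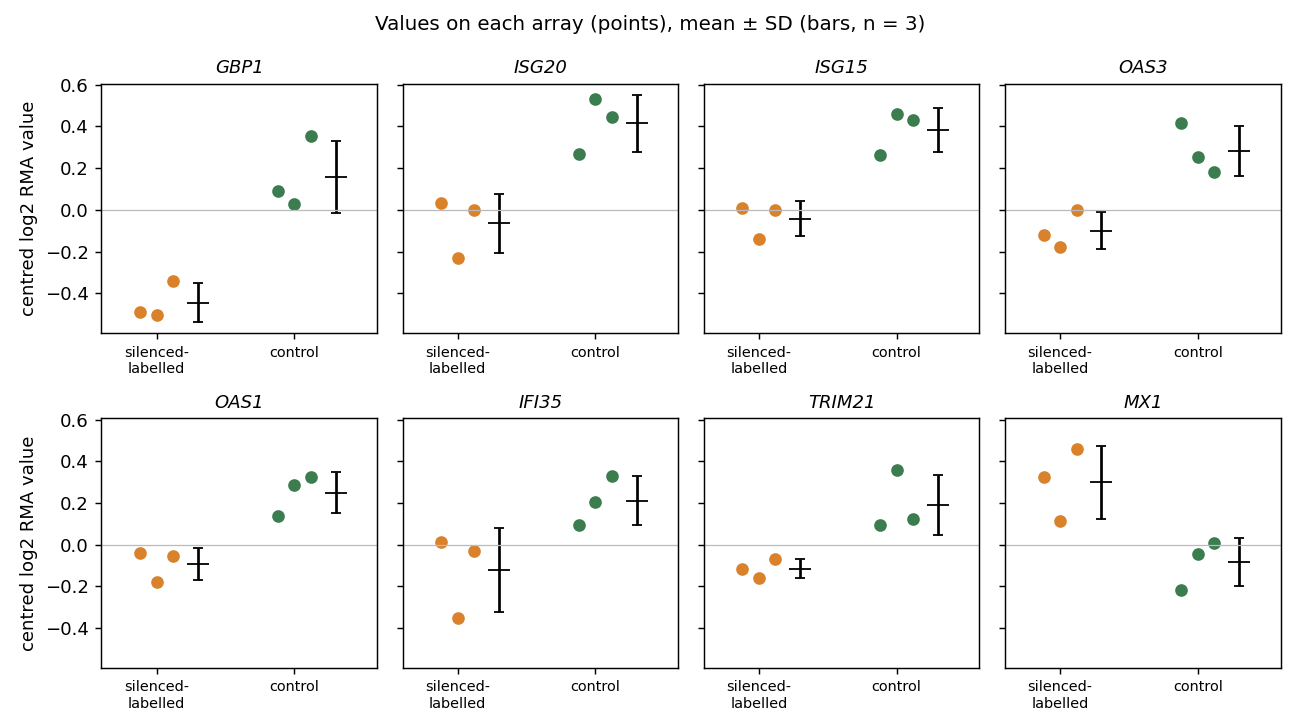
Centred log2 RMA values (vertical axis) of 8 members on each array, with the 3 silenced-labelled arrays left of the 3 control arrays, replicates 1 to 3 from left to right within each label, and the mean ± SD beside them. The labels do not overlap in any of the 8 genes, and GBP1 shows the widest gap between means.

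ISG20, an exonuclease that degrades viral RNA, was lower. Its values were 0.034, -0.23 and 0 on the silenced-labelled arrays, against 0.27, 0.53 and 0.45 on the control arrays. The groups do not overlap, and silenced replicate 2 stands below the other 2 silenced-labelled arrays. ISG20 was 1.39-fold lower (log2 difference -0.48, SE 0.0913, limma adjusted p = 0.0083), on 1 probe set.

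ISG15, the ubiquitin-like protein that is attached to other proteins or secreted, was lower, while the enzymes of its pathway did not pass. It measured 0.0098, -0.14 and 0 in the silenced-labelled cells, against 0.26, 0.46 and 0.43 in control cells. The groups do not overlap, and ISG15 was 1.34-fold lower (log2 difference -0.43, SE 0.072, limma adjusted p = 0.0046), from 1 probe set of a kind that can match other genes. UBE2L6, its conjugating enzyme, had a difference of 0.016. HERC5, its main ligase in human cells, measured 0.043, 0.19 and 0.10 in the silenced-labelled cells, against -0.11, 0 and -0.042 in control cells, without overlap, and did not pass (difference 0.16, limma adjusted p = 0.13). HERC6, which serves as the ligase in mouse, had a difference of 0.092. The probe set of USP18, which it shares with FAM247A and other genes, had a difference of 0.13 (limma adjusted p = 0.61).

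Differences in the IFI genes, a group named only for induction by interferon, were small except in IFI35. IFI35, which forms a complex with NMI, measured 0.013, -0.35 and -0.029 in the silenced-labelled cells, against 0.094, 0.21 and 0.33 in control cells. The groups do not overlap, silenced replicate 2 is far below the other silenced-labelled arrays, and the difference of -0.33 did not pass (SE 0.103, limma adjusted p = 0.07). IFI6 and IFI27, small membrane proteins, had differences of -0.0056 and -0.05. IFI44 and IFI44L, which lie next to each other in the genome, had 0.036 and -0.076.

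The IFIT proteins, which bind viral RNA that lacks host cap marks, did not pass in limma in any of their 4 genes (0, also at an unadjusted p under 0.05). Over all 18132 genes, 13.3% passed and 4467 had an unadjusted p under 0.05 in limma, so 0 of 4 genes says little. IFIT1 measured -0.14, -0.057 and -0.12 in the silenced-labelled cells, against -0.20, 0.037 and 0 in control cells, and its labels overlap. The 4 differences ran from -0.098 in IFIT2 to -0.055 in IFIT1. In IFIT3 the groups do not overlap, with a difference of -0.061 (limma adjusted p = 0.55). Of the membrane proteins that block viral entry, IFITM1, IFITM2 and IFITM3 had differences of 0.053, -0.089 and -0.12. BST2, which tethers budding viruses, had 0.03, and RSAD2, which makes a chain-terminating nucleotide, had -0.023. For RSAD2 the 95% interval was -0.163 to 0.116.

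None of the sensors and transcription factors passed in limma at the level of the gene (0 of 7 measured, and 0 at an unadjusted p under 0.05). Of all 18132 genes, 13.3% passed and 4467 had an unadjusted p under 0.05 in limma. Beside these shares, 0 of 7 genes says little about the sensors and factors. IFIH1, the sensor of long double-stranded RNA also called MDA5, had a difference of 0.056, and MAVS, the mitochondrial adaptor of the sensors, had -0.015 over 7 probe sets. IRF3, which MAVS signalling activates, had 0.026. DHX58, a regulatory sensor also called LGP2, had 0.02 over 4 probe sets that disagreed. One of them passed alone and measured 0.23, 0.38 and 0.28 in the silenced-labelled cells, against 0.11, -0.043 and -0.15 in control cells (difference 0.32, limma adjusted p = 0.042 over all probe sets), and the other 3 lay between -0.19 and -0.016. The transcription factors IRF1, IRF7 and IRF9 had differences of -0.071, 0.088 and 0.071, with overlapping groups in each.

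The remaining effectors did not pass either. SAMHD1, which depletes the nucleotides that viruses need, measured 0.099, 0.035 and 0.027 in the silenced-labelled cells, against -0.27, -0.066 and -0.042 in control cells, without overlap (difference 0.18, limma adjusted p = 0.15). PARP12, which blocks viral translation, had -0.15 without overlap (limma adjusted p = 0.14), and PARP9, a partner of the ligase DTX3L, had 0.12. EIF2AK2, the kinase PKR that halts translation on sensing double-stranded RNA, had -0.0065, XAF1, which promotes cell death, 0.032, SAMD9, a restriction factor of poxviruses, -0.099, and TAP1, a subunit of the peptide transporter for antigen presentation, -0.07. Of the 34 members that did not pass, 33 had a 95% interval within a log2 difference of 0.5 in either direction, and IFI35 was the exception. Not passing does not show that a member was equal under both labels. IFIT3, IFITM2, IFITM3, OASL, IFI27, UBE2L6 and PARP12 had only probe sets of kinds whose probes can match other genes. The same holds for 1 of the 2 probe sets of IFITM1. Differences given for these members may therefore not be of the named gene alone.

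**Figure D3:**
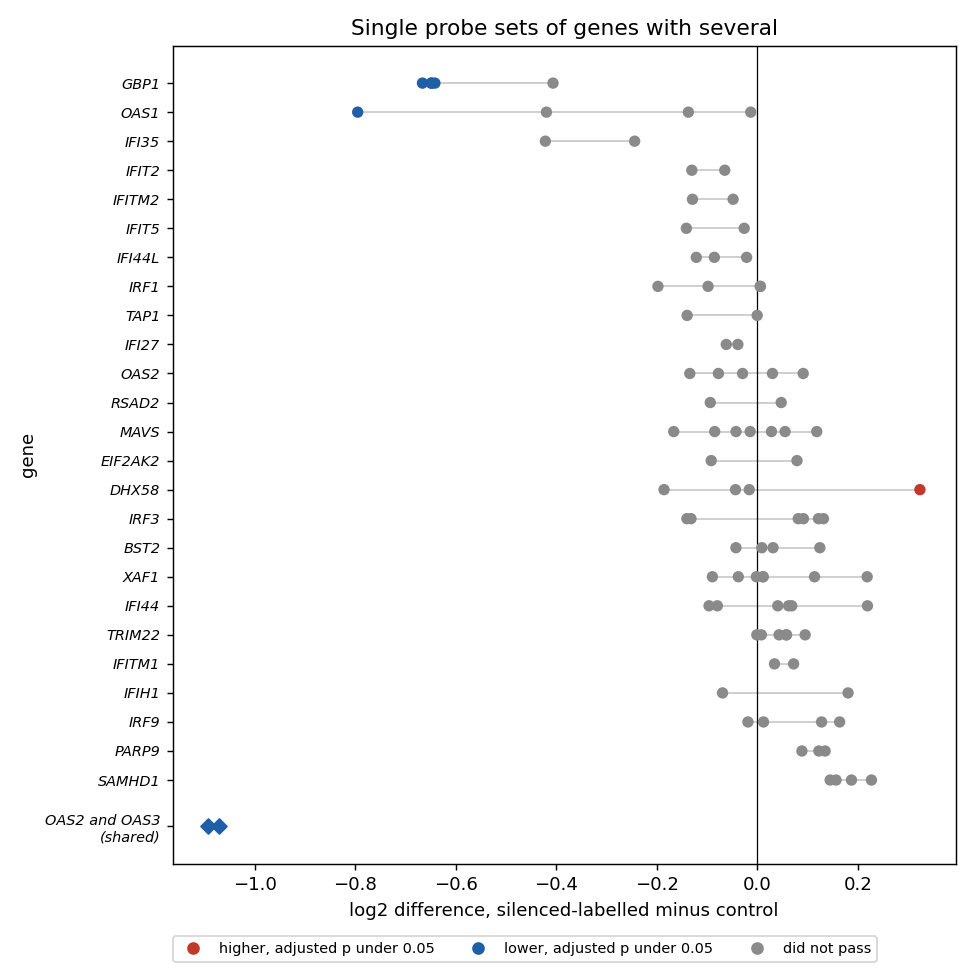
Log2 difference (silenced-labelled minus control arrays, horizontal axis) of every single probe set of the 25 members with more than 1, in rows by gene, coloured by the test over all probe sets. The 5 probe sets of GBP1 lie together and those of OAS1 and DHX58 are spread, and the diamonds at the bottom are the 2 probe sets shared by OAS2 and OAS3, at -1.09 and -1.07.

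Among the 108 single probe sets, 8 were lower (7.41%) and 2 higher (1.85%), where 4.85% and 5.82% of all probe sets were. Together they were 9.26%, beside 10.7% of all probe sets, so this share too was near the background. Groups did not overlap in 29 of the 108, 26.9%, beside 26.7% of all probe sets. Of the 25 members with more than 1 probe set, 13 had probe sets on both sides of 0. The 8 were 4 of GBP1 and 1 each of ISG15, ISG20, OAS1 and OAS3, and the 2 were those of MX1 and DHX58.

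For the lists below, the shares over all 18132 genes were 7.14% higher and 6.19% lower, with 4467 genes at a limma unadjusted p under 0.05. Upstream of the members, 0 of 17 measured interferon genes passed in limma, with 1 at an unadjusted p under 0.05 and differences from -0.21 to 0.20. Without silenced replicate 1, 1 of them passed as higher. Of 19 receptors and JAK-STAT components, 2 were lower and 1 higher. IL10RB, a receptor chain shared by interferon lambda and interleukin 10, was 1.62-fold lower (log2 difference -0.70, SE 0.0855, limma adjusted p = 0.00083). It measured -0.095, -0.20 and 0.042 in the silenced-labelled cells, against 0.46, 0.69 and 0.69 in control cells. IFNGR2, a chain of the interferon gamma receptor, fell by 0.43 on the log2 scale, and PIAS1, a SUMO ligase that restrains STAT proteins, rose by 0.33. Without control replicate 2, 0 genes of this list were higher. Of 19 genes of nucleic acid sensing, 1 was lower and 0 higher. That gene was TICAM1, the adaptor of the double-stranded RNA receptor TLR3, which measured 0, -0.10 and 0.04 in the silenced-labelled cells, against 0.39, 0.48 and 0.54 in control cells (difference -0.49, limma adjusted p = 0.0012).

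Of 51 other interferon-stimulated genes, 4 were lower and 2 higher, beside 6.19% and 7.14% of all genes. The median difference of the 51 was 0.0124, where that of the members was -0.0241. The mean centred value of the 51 lay between -0.00116 and 0.0159 on the silenced-labelled arrays and between -0.00275 and 0.0111 on the control arrays. These ranges overlap, while those of the members do not. NMI, the partner of IFI35, measured 0.022, -0.11 and 0.0022 in the silenced-labelled cells, against 0.41, 0.38 and 0.57 in control cells (difference -0.48, limma adjusted p = 0.002). LGALS3BP, a secreted glycoprotein, fell by 0.37 on the log2 scale and PLSCR1, a phospholipid-binding protein, fell by 0.35. CXCL10, a chemokine that attracts T cells, was 1.46-fold higher and measured -0.065, 0.11 and 0.012 in the silenced-labelled cells, against -0.61, -0.46 and -0.51 in control cells (difference 0.54, limma adjusted p = 0.00088). PARP14, a mono-ADP-ribosyltransferase, rose by 0.36.

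Of 20 genes of class I antigen presentation beside TAP1, 3 were lower and 0 higher, where 6.19% and 7.14% of all genes were. PSMB9, a subunit of the immunoproteasome whose gene is induced by interferon gamma, measured -0.19, -0.34 and -0.25 in the silenced-labelled cells, against -0.0022, 0.25 and 0.19 in control cells (difference -0.40, limma adjusted p = 0.0085). HLA-C and HLA-B, class I heavy chains, fell by 0.32 and fell by 0.29 on the log2 scale. These genes are near-identical and variable in sequence, so their values are uncertain. Of 7 genes of ubiquitin-like conjugation beside ISG15, the deubiquitinase gene USP14 alone was lower (difference -0.20, limma adjusted p = 0.043), and 0 were higher. The USP14 call was lost without any 1 of the 6 arrays, with the replicate block, with the most variable or specific probe sets and with suffix s and x removed, where 0 genes of the list were lower.

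**Figure D4:**
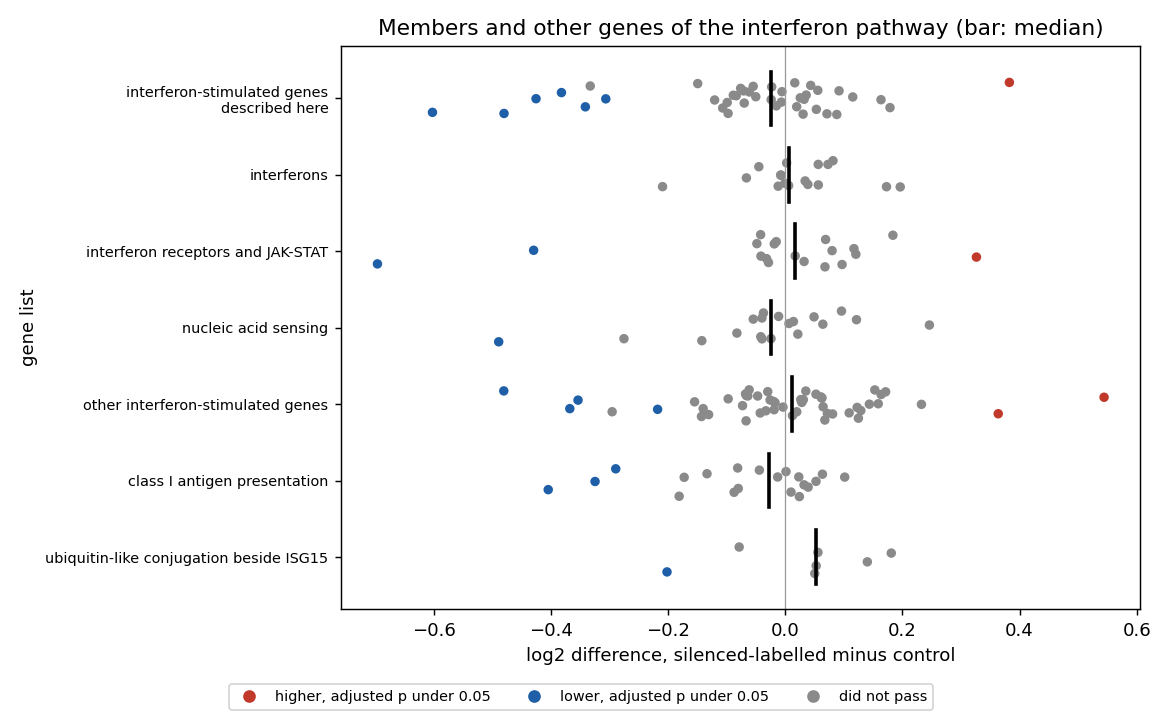
Log2 difference (silenced-labelled minus control arrays, horizontal axis) of each gene in the 41 measured members and in 6 other lists of the interferon pathway, with the median of each list as a black bar. Medians lie near 0 in every list, from -0.0286 for class I antigen presentation to 0.0528 for ubiquitin-like conjugation, and called genes lie on both sides among the members, the receptors and JAK-STAT components and the other interferon-stimulated genes.

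Markers of other cells were set beside these results. Over all genes, 7.14% were higher and 6.19% lower. Of 16 immune cell markers 1 was higher, the lysozyme gene LYZ (difference 0.34; 0 were higher without silenced replicate 3 or control replicate 1 or 3), and 0 lower, and of 11 stellate and endothelial markers 1 was higher, the collagen gene COL1A2 (difference 0.55), and 0 lower. The mean centred value of the immune list lay between -0.0651 and 0.0712 on the silenced-labelled arrays and between -0.0304 and 0.0248 on the control arrays. Of 12 hepatocyte markers, 6 were higher and 1 lower, so a larger part of this list was higher than of all genes. The largest differences past the threshold were 1.14 in APOA1, 0.70 in AFP and 0.40 in FGA, and the lower marker was APOH (-0.35). The hepatocyte list had means of 0.0826 to 0.0931 on the silenced-labelled arrays, against -0.219 to -0.133 on the control arrays. Which markers are at or near 0 cannot be read from centred values, and the part of these markers in the results on interferon-stimulated genes was not tested.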

How the data were processed

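Transcript levels were measured on 6 one-colour oligonucleotide arrays, 3 per label. The authors deposited values made with RMA (version not given), per the submitters' processing notes, and they are on a log2 scale. RMA corrects background, normalises by quantiles and summarises probes. The log base is RMA's usual one and is otherwise not stated. The values had been centred per probe set. The signs of all 49395 probe sets could come from a median of 9 arrays, of which 6 are analysed here, so the baseline is an inference, and 80.6% of probe sets hold an exact 0 on some array.

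Control probe sets (102) were left out. For each gene the probe sets carrying that symbol alone were averaged (44988 such probe sets, against 1832 with several symbols and 2473 with none here), and no symbol needed updating (0). Differences were fitted with limma 3.58.1 (R 4.3.3) across all genes, with group as the only term, and adjusted by Benjamini-Hochberg, with an adjusted p under 0.05 as the threshold. The script was tested on simulated data of the silenced against control comparison with 18132 genes, of which 100 were changed per size. It found 73% of changes of 0.5 and 99% of changes of 1 on the log2 scale, with 7 false calls. Far fewer genes were changed there than passed in the data, so these shares need not hold for the data. Sizes under 0.5, such as those of every called member but GBP1, were not tested. The number of arrays limits the precision.

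Full statistics go to KCNN4 and members past the threshold, values on each array also to members with separate groups and a difference of at least 0.2, and the 3 largest called genes of each pathway list are named. Members named beyond this were picked after their values were seen. The members and lists were chosen with earlier results of these data known. Alternatives were the most variable probe set, specific probe sets, quantile normalization, removal of probe sets with 3 or more zeros, robust variance, array weights, a replicate block and leaving out each array, and, chosen after seeing the data, removal of probe sets with the suffix s or x.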

Additional observations from a re-analysis of the deposited data

How the results depend on the processing

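GBP1, ISG15, ISG20, OAS1 and OAS3 stayed lower and past the threshold under every alternative in which they were measured, with OAS1 between -0.80 (most variable probe set) and -0.30. Specific probe sets measured 14 members and called 1 lower (OAS3) and 0 higher, as genes and as probe sets (1 and 0). The other members called as genes have no such probe set, while that of DHX58 was still measured and missed the threshold (0.32, adjusted p = 0.057); the pathway lists then had 2 lower and 3 higher. With only suffix s and x removed, chosen after seeing the data, 5 of 32 members were lower and 1 higher, 4 probe sets were lower, and 5 pathway genes were lower. IFI35 passed then (-0.42, adjusted p = 0.044), and with array weights (-0.33, 0.046). With the most variable probe set 2 members were higher, DHX58 passing (0.32, 0.049), and TRIM21 had an adjusted p of 0.062. The count of higher probe sets was 1 with quantile normalization, robust variance or the replicate block. Leaving out 1 array gave 0 to 1 higher and 5 to 6 lower members, 0 to 1 higher and 6 to 8 lower probe sets, 9 to 11 higher and 9 to 11 lower pathway genes, and a KCNN4 difference of -0.0445 to 0.0548. Replicate numbers were not taken as pairs: deviations of same-numbered arrays from their group means correlated at -0.096, -0.0694 and -0.0397, and those of other pairs across labels at -0.379 to 0.381. The replicate block gave 7 lower and 1 higher member, IFI35 passing (-0.33, adjusted p = 0.049), and 11 lower probe sets. No alternative moved the median of all genes by more than 0.0194 from 0. Centred values hide which probe sets lie near background, and depth of signal could not be judged.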

Other observations

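The 3 OAS genes with 2-5A synthetase activity are consecutive protein-coding genes in RefSeq's order, OAS1, OAS3 and OAS2. The first pair was lower in the silenced-labelled arrays (differences of -0.34 and -0.38), and OAS2, measured by 5 probe sets of its own, had -0.024. The 2 probe sets that carry OAS2 and OAS3 together, at -1.09 and -1.07, could belong to either gene, so the contrast of OAS2 with its neighbours is not settled here.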
